A study of Homo sapiens with 29 samples.

Results

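Aminoacyl-tRNA synthetases and translation initiation factors were followed at the RNA level in PC9 cells, a lung adenocarcinoma line that carries an activating EGFR mutation, with and without erlotinib, an inhibitor of the EGFR kinase. The members were the protein-coding synthetase genes with current names ending in ARS1 or ARS2, including EPRS1 and QARS1, and the protein-coding genes with symbols starting with EIF2S, EIF2B, EIF3, EIF4A, EIF4B, EIF4E, EIF4G or EIF5. They numbered 78 of 35580 genes, and 69 of them were among the 9241 genes whose level averaged 10 TPM or more over all libraries. TPM is a transcript level corrected for length that adds up to the same total in every library. They comprised 18 cytosolic and 17 mitochondrial synthetases, 9 genes of eIF2 and eIF2B, 14 of eIF3, 15 of the eIF4 group and 5 of the eIF5 group.

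A synthetase joins one amino acid to its tRNAs, and separate genes serve most amino acids in the cytosol and in mitochondria. In initiation, eIF2 brings the initiator tRNA to the small ribosomal subunit, eIF2B recharges eIF2 with GTP, eIF3 holds the complex together, and the eIF4 proteins recruit the capped mRNA and unwind its leader. Growth factor signaling through mTORC1, MYC and the stress factor ATF4 is known to act on these genes or their products, and phosphorylation of eIF2 and of the eIF4E-binding proteins slows initiation.

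RNA was sequenced from 10 PC9 lines, each untreated (UT) and with erlotinib (E), and in 9 of them with erlotinib and AF154, an antibody that activates the receptor tyrosine kinase AXL (EA). Treatment with E or EA lasted 24 h, and the time for which untreated dishes were kept is not given in the sources used here. The lines were the parental cells with endogenous AXL (PAR), an AXL knockout (KO), and knockout cells that received the wild-type receptor (WT), a kinase-dead form (KD) or a receptor with 1 tyrosine replaced by phenylalanine, in the mutants Y634F, Y643F, Y698F, Y726F, Y750F and Y821F. The 9 lines other than PAR therefore share the knockout, which was made with a guide RNA against the kinase domain, and 8 of them also share lentiviral transduction. Whether KO is 1 clone is not given in the sources used here. KO with AF154 was not analysed here. There was 1 library per line and treatment, 29 in all, so lines served as replicates of a treatment. The p-values measure how the change with treatment varied between lines, and not between repeat cultures of a line. Because the lines share an origin, they are not fully independent replicates.

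AXL lay between 79.3 and 92.4 TPM in the 2 KO libraries and between 217 and 852 TPM in the others. A lesion at the guide's target need not remove the transcript. Epithelial markers fitted the label, with EPCAM from 286 to 439 TPM and KRT8 at 1249 TPM or more in every library. Of 7 markers of other cell types, CD3E was at 0 throughout, PTPRC, COL1A2 and PECAM1 reached at most 1.47, 0.338 and 9.60 TPM, and VIM, CD68 and COL1A1 lay between 13.1 and 70.9 TPM, a part in the results that was not tested. Mitochondrially encoded transcripts held 11.4 to 14.4% of TPM in UT, 12.3 to 17.4% in E and 12.9 to 17.4% in EA, with the highest E value in PAR, and with the libraries rescaled without them the counts below were 52 lower and 10 higher of 70 members. Because TPM is a share of a bulk sample, less of a transcript per cell and more of all other RNA cannot be told apart.

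With erlotinib, most members lay lower. Together the 78 genes made up 1.102 ± 0.0174% of all TPM in UT (SD, n = 10), 0.841 ± 0.0213% in E (n = 10) and 0.868 ± 0.0251% in EA (n = 9). The summed share ran from 1.09 to 1.15% in UT and from 0.796 to 0.874% in E, so the UT and E libraries did not overlap, and the EA range of 0.825 to 0.905% overlapped with E alone. Of the 69 members tested, 52 fell and 9 rose with erlotinib, at an adjusted p under 0.05. Over all 9241 genes, 42.6% fell and 36.6% rose. These shares are the background for the erlotinib counts by group and list below. The median log2 change was -0.35 over the members and -0.04 over all genes. In every line the member median was lower than that of all genes, from -0.46 against -0.16 in PAR to -0.26 against 0.02 in Y643F. All 10 lines moved downwards in 42 members, but the share of all genes that did so is not given, so this count has no background. The E libraries lay entirely below the UT libraries for 30 members, where 21.6% of all genes did so, and entirely above them for 3 members, where 14.9% did.

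**Figure D1:**
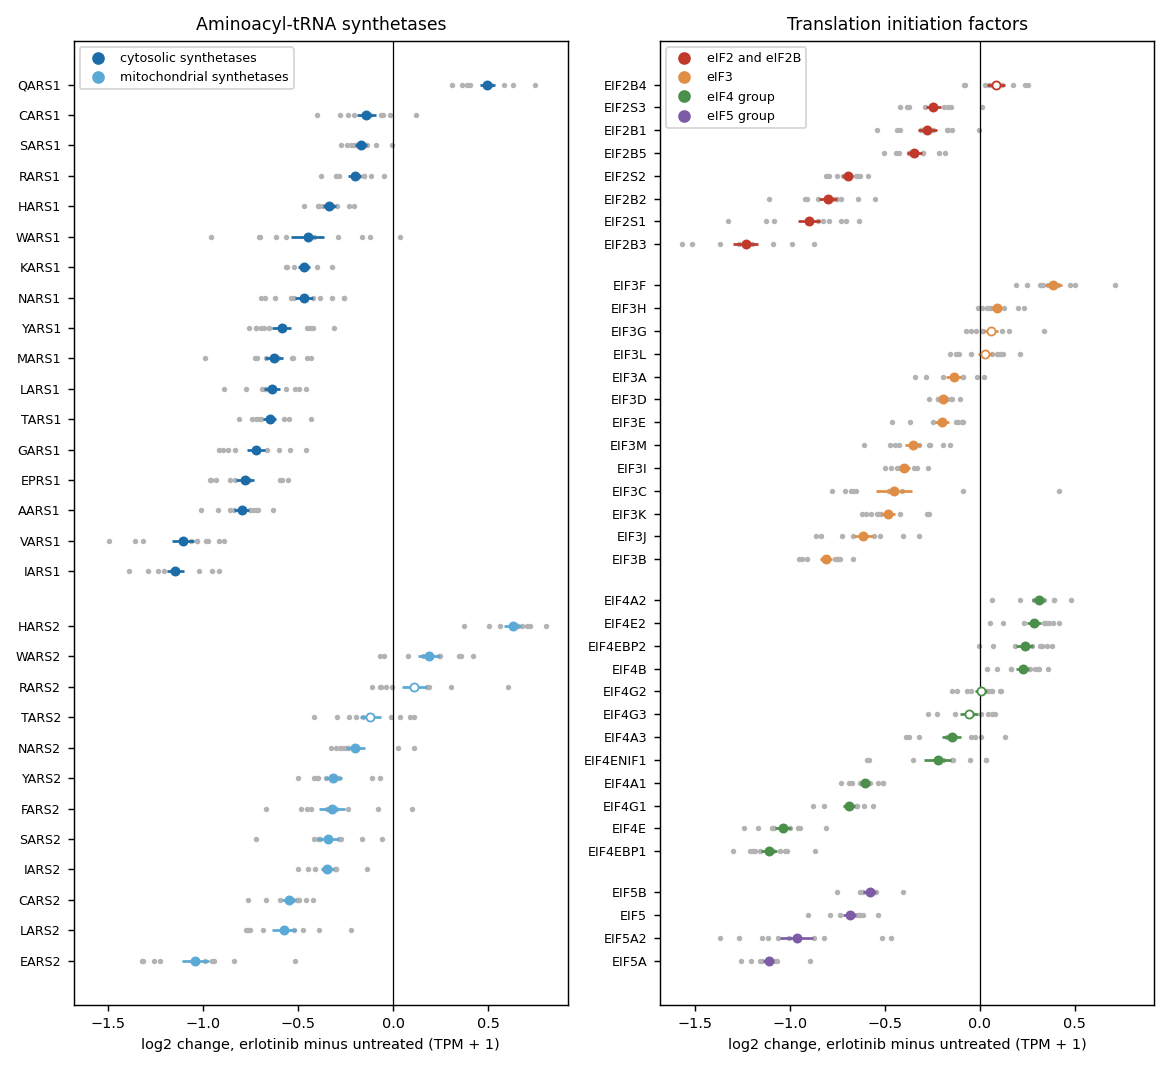
Change with erlotinib of 66 members, as erlotinib minus untreated on the log2(TPM + 1) scale, with synthetases in the left panel and initiation factors in the right. Coloured points with bars are the mean ± SE over 10 lines, filled where the adjusted p is under 0.05, and grey points are the single lines. EIF3CL is left out for its spread, and 2 further members are not shown. Most members lie left of 0, with QARS1 and HARS2 among the few on the right.

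The cytosolic synthetases fell nearly as a block. Of 18 members, 17 fell and 1 rose, with a median log2 change of -0.53. IARS1, which charges isoleucine tRNA (ENSG00000196305, chromosome 9 from 92210207 to 92293756, GENCODE 29 on GRCh38), lay at 137, 156 and 184 TPM in UT (lowest, median, highest) and at 59.2, 69.9 and 79.1 TPM in E. The ranges were far apart, and its log2 change was -1.15 ± 0.0445 (SE, 10 lines, adjusted p = 6.57e-12). VARS1, the valine enzyme, went from a median of 95.4 TPM to 44.5 TPM, with UT between 85.0 and 109 TPM and E between 36.2 and 53.8 TPM. Its log2 change was -1.11 ± 0.0590 (adjusted p = 1.99e-10). Of its TPM, 70.4% came from transcripts annotated on alternate loci, which were summed with the reference copy.

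AARS1, the alanine enzyme, EPRS1, the fused glutamate and proline enzyme, and GARS1, whose gene supplies glycine charging in both compartments, stood next in the order. AARS1 fell from 112 ± 4.90 to 64.1 ± 5.54 TPM (SD, n = 10 each, log2 change -0.80, adjusted p = 5.85e-11). EPRS1 fell from 79.4 ± 9.52 to 45.6 ± 3.81 TPM (log2 change -0.78, adjusted p = 1.03e-09). GARS1 fell from 80.0 ± 10.9 to 48.0 ± 5.33 TPM (log2 change -0.72, adjusted p = 2.33e-09). For each of these 3 genes the highest E library was below the lowest UT library. The same separation held for the threonine, leucine, methionine, asparagine and lysine enzymes. TARS1 fell from 382 ± 12.7 to 243 ± 14.5 TPM (log2 change -0.65), LARS1 from 98.9 ± 9.98 to 62.9 ± 3.46 TPM (-0.64) and MARS1 from 112 ± 6.24 to 72.1 ± 6.94 TPM (-0.63). NARS1 and KARS1 both had log2 changes of -0.47, from 94.8 ± 6.85 to 68.3 ± 6.63 TPM and from 148 ± 10.7 to 106 ± 5.71 TPM.

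The smaller changes included those of WARS1, RARS1, SARS1 and CARS1. WARS1, the tryptophan enzyme and a gene known to respond to interferon, ranged from 26.5 to 37.5 TPM in UT and from 17.0 to 27.2 TPM in E. These ranges overlapped, 9 of 10 lines moved down, and the log2 change was -0.45 ± 0.0866 (adjusted p = 0.000227). RARS1 and SARS1, the arginine and serine enzymes, fell by 0.20 and by 0.17 on the log2 scale (adjusted p = 7.36e-05 and 0.000146). CARS1, the cysteine enzyme, had a log2 change of -0.14 (adjusted p = 0.0168) and 95.0% of its TPM on alternate loci. YARS1, the tyrosine enzyme, fell by 0.59 on the log2 scale (adjusted p = 3.92e-08), and the share of its TPM in protein-coding transcripts went from 78.5% in UT to 62.0% in E.

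QARS1 went the other way. This gene encodes the glutamine enzyme. It lay at 115, 132 and 160 TPM in UT and at 165, 192 and 216 TPM in E, with no overlap and a rise in 10 of 10 lines (log2 change 0.49 ± 0.0405, adjusted p = 2.88e-08). Its main protein-coding transcript went from 57.3 ± 3.86 to 85.8 ± 5.99 TPM (SD, n = 10 each), and a transcript annotated as retaining an intron went from 46.2 ± 11.4 to 71.0 ± 9.71 TPM. Protein-coding transcripts made up 52.3% of its TPM in UT and 52.2% in E.

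The mitochondrial synthetases were mixed. Of 17 members, 13 were tested, and of these 9 fell and 2 rose, with a median log2 change of -0.32. EARS2, the mitochondrial glutamate enzyme, went from 39.2, 46.3 and 53.0 TPM in UT to 17.2, 21.5 and 27.1 TPM in E, and the ranges did not overlap (log2 change -1.04 ± 0.0718, adjusted p = 3.86e-09). CARS2 also had no overlap, with a fall from 72.1 ± 4.44 to 49.0 ± 3.50 TPM (SD, n = 10 each, log2 change -0.55). LARS2, SARS2, FARS2, YARS2 and NARS2 fell with log2 changes of -0.58, -0.35, -0.32, -0.32 and -0.20, and their ranges overlapped. TARS2 and RARS2 did not pass, at -0.12 and 0.11 (adjusted p = 0.0573 and 0.142). IARS2, the mitochondrial partner of IARS1, fell from 94.6 ± 8.80 to 74.1 ± 6.55 TPM (SD, n = 10 each, log2 change -0.35, adjusted p = 3.34e-07), with overlapping ranges. WARS2, the partner of WARS1, rose from 17.7 ± 2.29 to 20.2 ± 2.19 TPM (log2 change 0.19, adjusted p = 0.00771, higher in 8 of 10 lines). With protein-coding transcripts alone its log2 change was 0.02 (adjusted p = 0.773).

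HARS1 and HARS2, which encode the cytosolic and mitochondrial histidine enzymes, moved in opposite directions. HARS2 lay at 24.8, 26.6 and 28.4 TPM in UT and at 35.0, 42.1 and 44.4 TPM in E, without overlap (log2 change 0.63 ± 0.0446, adjusted p = 5.44e-09, higher in 10 of 10 lines). HARS1 lay at 53.2, 59.1 and 62.6 TPM in UT and at 38.1, 47.1 and 49.5 TPM in E, again without overlap (log2 change -0.34 ± 0.0345, adjusted p = 3.46e-07, lower in 10 of 10 lines). Among the HARS2 transcripts, HARS2-219 went from 3.32 ± 2.99 to 12.1 ± 2.78 TPM, and HARS2-213 was at 12.8 ± 4.20 and 13.1 ± 5.10 TPM (SD, n = 10 each). The gene pair is shown by sequence because the neighbours are transcribed away from each other from nearly the same place. In RefSeq on GRCh38.p14 their starts lie 85 bases apart on chromosome 5. The stretch between the starts, chr5:140691371-140691454, is given on the plus strand, the HARS2 strand, with no capitals since neither motif searched occurs in it.
HARS1 and HARS2: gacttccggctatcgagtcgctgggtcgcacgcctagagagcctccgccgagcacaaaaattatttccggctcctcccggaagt
In GENCODE the genes overlap by 437 bases on opposite strands. How the counting treated strand is not given in the sources used here, so reads from that overlap could have gone to either gene.

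Promoters were searched for 2 short motifs on both strands, TGATGNAA, a pattern of the kind bound by ATF4 with a C/EBP partner, and CACGTG, the E-box bound by MYC and related factors. The RefSeq windows ran from 250 bases before to 50 bases after a start, and 63 of 78 members had one that was searched. TGATGNAA occurred in the windows of 9 member genes of 63, or 14.3%, and 4.46% of all genes with windows. Among cytosolic synthetases 7 of 14 held it. They were AARS1, CARS1, GARS1, IARS1, MARS1, NARS1 and TARS1. Of these stretches 6 are printed to show the letters and where they lie, each 5′ to 3′ on its gene's strand with the match, on either strand, in capitals.
AARS1, chr16:70289670-70289709, minus strand: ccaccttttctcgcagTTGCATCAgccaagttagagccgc
CARS1, chr11:3057402-3057441, minus strand: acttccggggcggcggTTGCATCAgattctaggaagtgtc
GARS1, chr7:30594829-30594868, plus strand: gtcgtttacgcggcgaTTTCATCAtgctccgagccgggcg
IARS1, chr9:92293687-92293726, minus strand: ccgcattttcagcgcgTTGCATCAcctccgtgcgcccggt
MARS1, chr12:57488048-57488087, plus strand: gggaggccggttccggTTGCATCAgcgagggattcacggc
TARS1, chr5:33440951-33440990, plus strand: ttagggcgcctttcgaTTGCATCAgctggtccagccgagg
Of these 7 genes, IARS1 had the largest fall and CARS1 the smallest. CARS1, GARS1 and TARS1 had a further RefSeq start whose window held neither motif. A match is a string of letters, and binding was not measured.

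The RNA of ATF4 itself did not pass the test, with 323 ± 16.8 TPM in UT and 307 TPM in E (log2 change -0.08, adjusted p = 0.0577). Among 13 tested genes of a list of ATF4 and its known targets, 7 fell (53.8%) and 4 rose (30.8%), where 42.6% and 36.6% of all genes did. PSAT1 and PHGDH, enzymes of serine synthesis, fell by 1.90 and by 1.35 on the log2 scale (adjusted p = 5.91e-12 and 6.57e-11). SLC7A5, an importer of large neutral amino acids, rose by 1.04 (adjusted p = 2.13e-10), and ATF3, a stress-induced transcription factor, rose by 1.10 (adjusted p = 1.06e-08). The list therefore did not move in 1 direction.

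FARSA and FARSB, the subunits of the phenylalanine enzyme that the naming rule leaves out, and the scaffold proteins of the multisynthetase complex were examined as a separate list, of which all 5 tested genes fell. The 6th gene of the list, TARS3, was under the filter, at 4.64 TPM in UT and 5.56 TPM in E. FARSB had a log2 change of -1.61 (adjusted p = 2.85e-12), beyond that of any member. The scaffold genes AIMP2 and EEF1E1 had log2 changes of -0.98 and -1.07 (adjusted p = 4.75e-12 and 8.32e-12), and AIMP1 of -0.39 (adjusted p = 0.000523).

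In eIF2 and eIF2B, 7 of 8 tested members fell and none rose (0 also at an unadjusted p under 0.05, limma), with a median log2 change of -0.52. EIF2S1 encodes the alpha subunit of eIF2, the one phosphorylated under stress. It lay at 226, 269 and 315 TPM in UT and at 104, 148 and 168 TPM in E, without overlap (log2 change -0.90 ± 0.0589, adjusted p = 2.16e-09). Only 43.4% of its TPM in UT and 40.5% in E belonged to protein-coding transcripts, the rest mainly to 2 transcripts annotated as retaining introns. EIF2S2, the beta subunit, fell by 0.69 on the log2 scale (adjusted p = 2.01e-11), and EIF2S3, the gamma subunit, fell by 0.25 (adjusted p = 4.79e-05, 9 of 10 lines).

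The subunits of eIF2B fell by different amounts. EIF2B3, which encodes the gamma subunit of the catalytic part, had the largest fall of all members. It lay at 22.9, 34.1 and 37.7 TPM in UT and at 8.28, 14.4 and 16.6 TPM in E, and the lowest value in either group was that of PAR. Its log2 change was -1.23 ± 0.0665 (adjusted p = 2.37e-10), between -1.56 in KO and -0.87 in Y634F. EIF2B5, the catalytic epsilon subunit, fell from 57.8 ± 4.65 to 45.4 ± 3.68 TPM (SD, n = 10 each, log2 change -0.34, adjusted p = 8.64e-07), with no overlap of ranges. EIF2B2, the beta subunit, fell by 0.80 (adjusted p = 1.04e-09), and only 11.6% of its TPM in UT came from protein-coding transcripts. EIF2B1, the alpha subunit, fell by 0.28 (adjusted p = 0.000209) with overlapping ranges. EIF2B4, the delta subunit, did not pass the test, at 21.8 ± 1.79 TPM in UT and 23.2 ± 2.22 TPM in E (adjusted p = 0.117).

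The enzymes that act on eIF2 did not move together. Of 5 tested genes, PPP1R15A, which directs phosphatase to eIF2 alpha, rose from 31.1 to 63.9 TPM (log2 change 1.02, adjusted p = 3.87e-12), and the kinase gene EIF2AK1 rose by 0.34 (adjusted p = 1.22e-05). EIF2AK4, the kinase that senses uncharged tRNA, and EIF2AK2, the kinase activated by double-stranded RNA, fell by 0.65 and by 0.75 on the log2 scale (adjusted p = 3.09e-10 and 2.19e-09). PPP1R15B rose by 0.09 (adjusted p = 0.0346).

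Most eIF3 genes fell too. Of 14 members, 9 fell, 2 rose and 3 did not pass the test, with a median log2 change of -0.28. EIF3A, the largest core subunit, was at 87.4 ± 2.64 TPM in UT and 79.5 ± 5.47 TPM in E (log2 change -0.14 ± 0.0379, adjusted p = 0.00399), with overlapping ranges. With quantile normalization of libraries its log2 change was -0.05 and no longer passed. EIF3B fell by 0.81 (adjusted p = 1.04e-11), from 214, 227 and 339 TPM to 124, 129 and 177 TPM, where the highest value in each group was that of PAR. EIF3F rose in 10 of 10 lines, from 124, 150 and 173 TPM in UT to 174, 190 and 212 TPM in E (log2 change 0.39 ± 0.0436, adjusted p = 1.02e-06). The ranges came within a few TPM of each other without overlapping. EIF3J and EIF3K fell by 0.61 and by 0.48 without overlap, from 123 ± 13.5 to 79.9 ± 9.20 TPM and from 210 ± 8.97 to 150 ± 9.62 TPM (SD, n = 10 each, adjusted p = 2.59e-08 and 1.96e-08). EIF3I, EIF3M, EIF3E and EIF3D fell by 0.40, by 0.35, by 0.20 and by 0.19, in 10 of 10 lines each. EIF3H rose by 0.09 in 9 of 10 lines (adjusted p = 0.00988). EIF3G and EIF3L were at 0.06 and 0.03 (adjusted p = 0.154 and 0.530) and did not pass, nor did EIF3CL.

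EIF3C and EIF3CL are near-identical copies on chromosome 16, so reads can be split between them arbitrarily. EIF3CL ranged from 1.14 to 123 TPM among the UT libraries and was high where EIF3C was low, as in WT untreated, with 123 TPM of EIF3CL and 189 TPM of EIF3C. The separate values are therefore uncertain. Their log2 changes were -0.88 ± 0.393 for EIF3CL (adjusted p = 0.0517) and -0.45 ± 0.0945 for EIF3C (adjusted p = 0.000483). EIF3CL passed when PAR or Y750F was left out, with log2 changes of -1.06 and -1.05. The sum of both genes was 389 ± 36.5 TPM in UT and 266 ± 18.7 TPM in E (SD, n = 10 each), with a log2 change of -0.54 ± 0.0462 (adjusted p = 4.21e-08).

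In the eIF4 group, 6 of 12 tested members fell, 4 rose and 2 did not pass. The shares, 50% lower and 33.3% higher, were near those of all genes, 42.6% and 36.6%. The falls were largest for EIF4E, the cap-binding protein, and EIF4EBP1, the inhibitor that mTORC1 releases from it. EIF4E lay at 73.3, 80.6 and 86.2 TPM in UT and at 33.8, 38.3 and 42.6 TPM in E (log2 change -1.04 ± 0.0414, adjusted p = 9.09e-12). EIF4EBP1 lay at 111, 128 and 144 TPM in UT and at 49.1, 59.6 and 63.3 TPM in E (log2 change -1.11 ± 0.0403, adjusted p = 3.37e-12). Both the cap-binding protein and its inhibitor fell in 10 of 10 lines without overlap. The 2 other members of the inhibitor family were EIF4EBP2, which rose by 0.24 (adjusted p = 0.000187, 9 of 10 lines), and EIF4EBP3, which stayed under the filter at 3.15 ± 1.24 TPM in UT and 3.69 ± 1.27 TPM in E.

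CACGTG occurred in the windows of 13 member genes of 63, or 20.6%, and of 8.79% of all genes. They were CARS2, EARS2, EIF2B3, EIF3F, EIF3K, EIF4A3, EIF4B, EIF4E, EIF4EBP3, EIF4G1, EIF5A2, IARS1 and MARS2. Of the 11 among them that were tested, EIF3F and EIF4B rose and the others fell. CARS2 and EIF4G1 also had a further RefSeq start whose window held neither motif. The 250 bases before the starts of EIF4E and IARS1 are printed because both genes fell by more than 1 on the log2 scale and held more than 1 match, the capitals marking CACGTG and TTGCATCA (a form of TGATGNAA on the other strand).
EIF4E, chr4:98929134-98929383, minus strand: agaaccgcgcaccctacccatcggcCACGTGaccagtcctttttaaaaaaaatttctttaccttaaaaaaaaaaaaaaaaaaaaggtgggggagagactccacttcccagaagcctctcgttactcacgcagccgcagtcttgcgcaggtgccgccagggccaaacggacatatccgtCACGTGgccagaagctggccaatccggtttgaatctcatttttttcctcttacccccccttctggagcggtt
IARS1, chr9:92293698-92293947, minus strand: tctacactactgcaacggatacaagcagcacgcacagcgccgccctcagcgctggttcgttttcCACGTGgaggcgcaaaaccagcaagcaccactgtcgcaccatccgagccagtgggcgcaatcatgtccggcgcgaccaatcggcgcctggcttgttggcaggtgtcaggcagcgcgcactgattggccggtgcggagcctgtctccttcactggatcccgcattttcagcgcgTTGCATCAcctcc
The EIF4E stretch held 2 matches of CACGTG, and that of IARS1 held 1 match of each motif. Of all 34961 windows, 63 held both motifs, and in 8 of them the matches overlapped.

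The RNA helicase of the cap-binding complex is encoded by a pair of close paralogs that moved in opposite directions. EIF4A1 lay at 772, 935 and 1006 TPM in UT and at 465.5, 624 and 658 TPM in E, without overlap (log2 change -0.60 ± 0.0269, adjusted p = 2.94e-11, lower in 10 of 10 lines). EIF4A2 lay at 426, 546 and 625 TPM in UT and at 594, 661 and 790 TPM in E, with overlap (log2 change 0.31 ± 0.0344, adjusted p = 8.96e-07, higher in 10 of 10 lines). In UT the mean level of EIF4A1 exceeded that of EIF4A2, at 924 ± 60.7 against 547 ± 58.2 TPM, and in E the means stood the other way round, at 609 ± 54.7 against 677 ± 63.4 TPM (SD, n = 10 each). EIF4A2 was above EIF4A1 in 0 of 10 UT libraries, in 9 of 10 E libraries and in 6 of 9 EA libraries. With protein-coding transcripts alone the mean of EIF4A1 stayed the higher one in E. It was 564 ± 48.6 TPM, against 521 ± 49.6 TPM for EIF4A2 (SD, n = 10 each). Within EIF4A2, the main protein-coding transcript went from 277 ± 35.1 to 384 ± 35.6 TPM, whereas one annotated for nonsense-mediated decay went from 35.5 ± 3.49 to 22.7 ± 3.88 TPM. Protein-coding transcripts made up 69.1% of EIF4A2 in UT and 77.0% in E.

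EIF4G1, the scaffold that joins the helicase and the cap-binding protein, went from 376, 398 and 542 TPM in UT to 223, 252 and 295 TPM in E, without overlap (log2 change -0.69 ± 0.0312, adjusted p = 3.39e-11). Its relatives EIF4G2 and EIF4G3 did not pass the test, with log2 changes of 0.01 and -0.06 (adjusted p = 0.875 and 0.267). EIF4E2, a cap-binding relative that represses translation of bound mRNAs, rose from 105 ± 9.25 to 128 ± 8.86 TPM (log2 change 0.29, adjusted p = 6.00e-06). EIF4B, which stimulates the helicase, rose from 260 ± 22.5 to 305 ± 32.8 TPM (log2 change 0.23, adjusted p = 1.92e-05). Both rose in 10 of 10 lines with overlapping ranges. EIF4A3, a helicase of the exon junction complex despite its name, fell by 0.15 (adjusted p = 0.0127), and EIF4ENIF1, which carries the cap-binding protein into the nucleus, fell by 0.22 (adjusted p = 0.0101), each in 8 of 10 lines.

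All 4 tested members of the eIF5 group fell. EIF5A, a hypusine-containing factor that also acts in elongation, had the highest TPM of all members in UT and lay at 1171, 1250 and 1312 TPM in UT and at 546, 578 and 659 TPM in E. The groups were far apart (log2 change -1.11 ± 0.0309, adjusted p = 2.69e-13). Its paralog EIF5A2 went from a median of 17.2 TPM to 7.70 TPM (log2 change -0.96 ± 0.0890, adjusted p = 1.12e-07), between -1.37 in WT and -0.47 in Y726F. A further copy, EIF5AL1, was at 0.154 TPM in UT and 0.257 TPM in E. EIF5, which triggers GTP hydrolysis by eIF2, and EIF5B, which joins the ribosomal subunits, fell by 0.68 and by 0.58 on the log2 scale (adjusted p = 8.92e-11 and 7.70e-10).

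**Figure D2:**
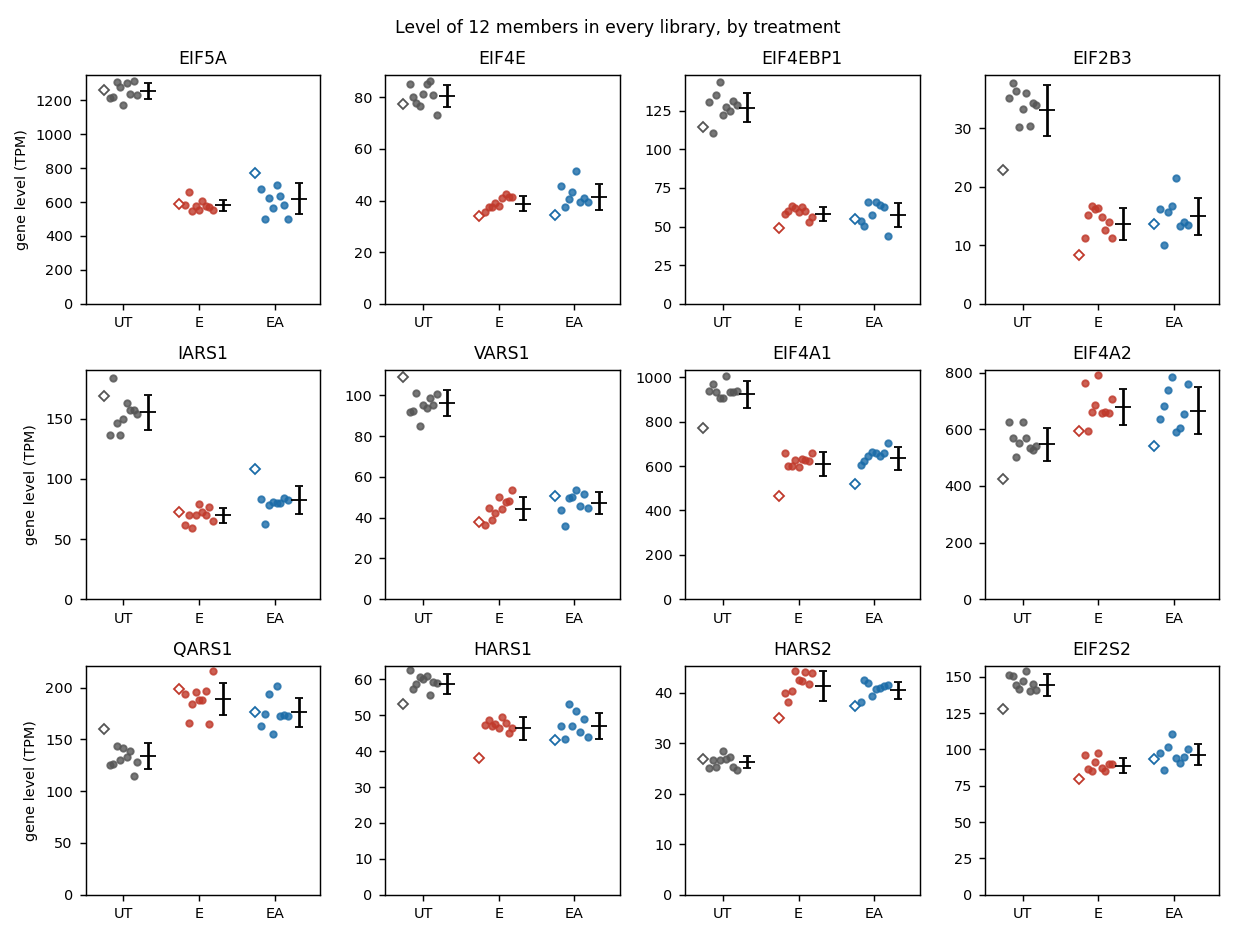
TPM of 12 members in every library, untreated (UT), with erlotinib (E) and with erlotinib and AF154 (EA). Each point is 1 line, open diamonds are PAR, and the bar is the mean ± SD over 10, 10 and 9 libraries. EIF5A, EIF4E, EIF4EBP1 and IARS1 separate UT from both treated groups, whereas HARS2 and QARS1 lie higher with treatment.

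The 9 members under the filter were not tested. MARS2, the mitochondrial methionine enzyme, was at 9.10 ± 0.798 TPM in UT and 3.67 ± 0.483 TPM in E (SD, n = 10 each), AARS2 at 8.10 ± 0.597 and 6.30 ± 0.635 TPM, and PARS2 at 7.56 ± 0.608 and 9.72 ± 0.991 TPM. EIF2S3B, EIF4E1B, EIF4E3, EIF5AL1 and VARS2 had UT means under 1 TPM.

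Several members carried much RNA in transcripts with no annotated protein, such as those retaining introns. In 5 members under 50% of TPM came from protein-coding transcripts. When only protein-coding transcripts were summed, 67 members remained above the filter, 65 of them had the same direction, and 58 passed in both fits with the same direction. Transcripts on alternate loci, whose type was not known, were counted as protein-coding. For CARS1 and VARS1, with 95.0% and 70.4% of TPM there, both fits therefore share most of their data by assumption. For EIF3K and SARS2, with 50% of TPM there, both fits share a large part in the same way. EIF4G2 and EIF2B4 differed in direction and passed in neither. YARS1 differed most among those with a fall, at -0.92 with protein-coding transcripts and -0.59 with all.

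**Figure D3:**
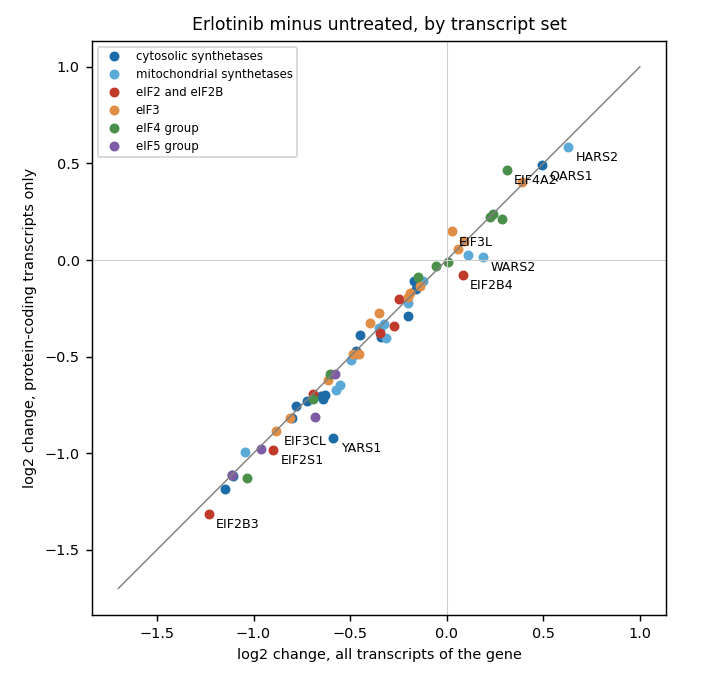
Log2 change with erlotinib of 67 members when all transcripts of a gene are summed (x axis) and when only its protein-coding transcripts are (y axis). Each point is 1 member and the grey line marks equal values. Most points lie near the line, with YARS1 below it and EIF4A2 above it.

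Elongation and termination factors gave a mixed picture. Of 10 tested genes, 6 fell and 3 rose. ABCE1, which recycles ribosomes, and GSPT1, the release factor eRF3a, fell by 1.19 and by 0.95 on the log2 scale (adjusted p = 7.73e-11 and 4.73e-12). EEF1A1 and EEF2, which deliver aminoacyl-tRNA and move the ribosome, rose by 0.48 and by 0.26 (adjusted p = 6.84e-10 and 2.00e-07). Of 15 other initiation factors 6 fell (40%) and 4 rose (26.7%), near or under the 42.6% and 36.6% of all genes. Among them were EIF1AX with -1.02 (adjusted p = 3.08e-11) and PDCD4, an inhibitor of the eIF4A helicase, with 0.97 (adjusted p = 1.58e-07). Of 10 mitochondrial translation factors 6 fell and 1 rose.

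Whether AXL activation changed these genes under erlotinib was addressed by comparing EA with E in the 8 lines other than KO and KD. The paper reports that only a part of the cells in each transduced line expressed AXL. It also reports lower receptor activation in WT and the tyrosine mutants than in PAR. The weight of this in the changes below was not tested. The changes were small. Of 69 members, 2 rose and 0 fell at an adjusted p under 0.05 by limma, and over all genes 2.02% rose and 0.509% fell. The share of members that rose was 2.90%, near that background. At an unadjusted p under 0.05, 19 members (27.5%) lay higher and 1 (1.45%) lower, where 12.7% and 8.2% of all genes did. The median log2 change was 0.07 over the members and 0.02 over all genes. This comparison shares its E libraries with the one above.

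IARS1 was at 71.9 ± 4.49 TPM in E and 84.8 ± 9.51 TPM in EA (SD, n = 8 each). It was higher in 8 of 8 lines, by 0.03 in Y643F to 0.57 in PAR on the log2 scale, and its log2 change was 0.23 ± 0.0536 (adjusted p = 0.0448). EIF2S2 was at 88.4 ± 5.31 TPM in E and 97.8 ± 6.33 TPM in EA, higher in 8 of 8 lines by 0.07 to 0.23 (log2 change 0.14 ± 0.0328, adjusted p = 0.0432). The KD pair, with no replicate error, gave 0.08 for IARS1 and 0.01 for EIF2S2. Neither call was firm. When each of the 8 lines was left out in turn, 0 of 8 fits called IARS1 (adjusted p from 0.0624 to 0.105) and 0 of 8 called EIF2S2 (adjusted p from 0.0525 to 0.118). The EIF2S2 gene also shares 20011 bases with RALY on the other strand, which averaged 214.5 TPM. How the counting treated strand is not given in the sources used here, and the weight of this overlap was not tested.

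The other members with the largest differences did not pass. They were EIF3CL (0.91, adjusted p = 0.518), EIF5A2 (0.27, adjusted p = 0.343), EIF3F (-0.13, adjusted p = 0.256) and EIF3C (-0.22, adjusted p = 0.238), and the sum of EIF3C and EIF3CL gave -0.01 (adjusted p = 0.920). Of the listed genes outside the members, GSPT1 (0.20, adjusted p = 0.0348), EIF1AX (0.19, adjusted p = 0.0366), AIMP1 (0.29, adjusted p = 0.0359) and PSAT1 (0.37, adjusted p = 0.0338) passed with a rise by limma. Over all genes, 2.02% were called higher in this fit. With 1 line left out the share ran from 0.108% (without Y634F) to 1.73% (without Y726F). Calls this near the threshold are therefore not firm either. Fits of these genes with a line left out are not reported here. The lists of eIF2 kinases and phosphatase and of mitochondrial translation factors held 0 calls by limma, with 4 and 0 genes at an unadjusted p under 0.05. The members' median by line was 0.18 in PAR, where that of all genes was 0.05, and between 0.01 and 0.06 in the 7 other lines with a test, and 0.00367 in KD. Without PAR the median over members was 0.05 and over all genes 0.01.

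**Figure D4:**
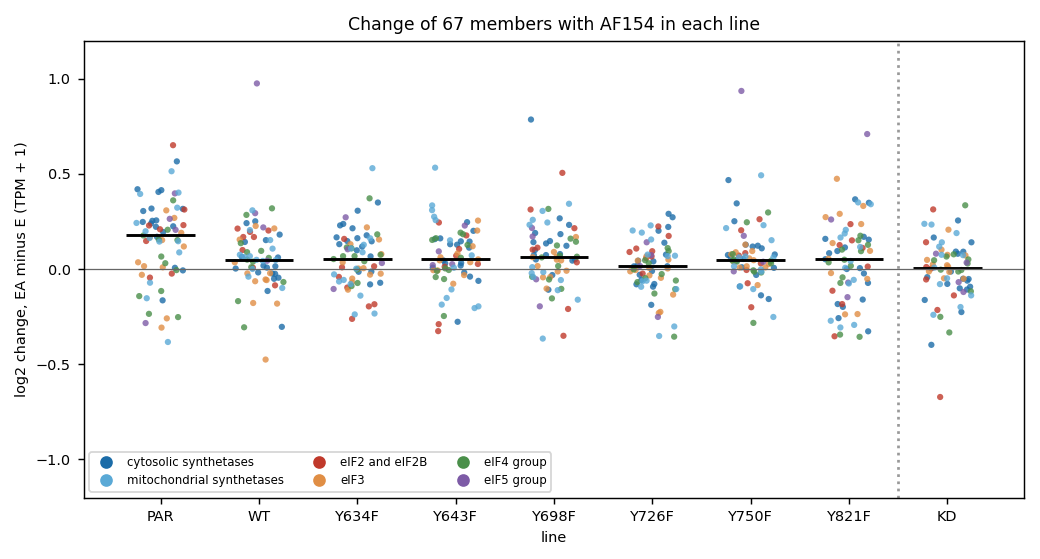
Log2 change with AF154 (EA minus E) of 67 members in each line, one point per member, coloured by group, with black bars at the median. EIF3C and EIF3CL are left out. KD, right of the dotted line, was not part of the test. PAR has the highest median, at 0.18, and the other lines lie close to 0.

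Levels in the parental line were compared with those of the 9 other lines. PAR lay above all other lines in each of the 3 treatments for 9 members and below them for 9 members of 69, where 8.69% and 11.8% of all genes did so. These counts stand near those shares and say nothing particular to the members. The 4 members with the widest gaps were EIF3B, EIF3I, EIF4G3 and EIF4A1. EIF3B was at 339, 177 and 199 TPM in PAR (UT, E, EA), and the highest values of the other lines were 244, 134 and 142 TPM. EIF3I, another subunit of eIF3, was at 259, 187 and 226 TPM against at most 191, 136 and 150 TPM. EIF4G3 was at 46.4, 42.3 and 42.2 TPM against at most 31.3, 26.8 and 29.4 TPM. EIF4A1 was the only one of these 4 that was lower in PAR, at 772, 465.5 and 519 TPM against at least 906, 596 and 605 TPM. PAR differs from the 8 transduced lines in the knockout, the virus and the receptor together, which cannot be told apart among those lines. It differs from KO, which was not transduced, in the knockout. KO was at 218 and 129 TPM for EIF3B (UT, E) and at 157.5 and 130 TPM for EIF3I. With 1 library per line and treatment, the cause of these gaps was not tested.

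Among the 9 other lines the members varied little. The median over members of the SD between lines was 0.11 on the log2 scale, and 0.14 over all genes. The widest spreads were those of EIF3CL, EIF3C and EIF5A2, with mean SDs of 1.83, 0.30 and 0.26, of which the first 2 are the near-identical copies above. EIF5A2 lay between 16.1 and 20.7 TPM untreated, between 5.62 and 11.8 TPM with erlotinib and between 6.94 and 14.96 TPM with AF154 in these lines.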

How the data were processed

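The authors deposited TPM per transcript for 29 libraries of polyadenylated RNA, and per the labels kallisto and GRCh38 were used, without version or role. TPM keeps no depth, so counting error is unknown and precision came from the spread of changes between lines. Of 188753 transcripts, 185119 were matched to GENCODE 29 and summed to 35580 genes (98.9 to 99.2% of TPM). The 15322 on alternate loci were added to the gene of the same name. Pseudogenes with members' symbols, 68 of them, were not members and summed to at most 13.1 TPM in a library. Of the tested members, 24 overlap an expressed gene on the other strand.

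Comparisons used limma 3.58.1 in R 4.3.3 (lmFit, eBayes with trend) on log2(TPM + 1), a scale that understates changes of low genes, blocked by line, and p-values were adjusted by Benjamini and Hochberg's method over the 9241 genes that averaged 10 TPM or more. The block pairs treatments of the same cell line. The filter follows the minimum stated in the study's methods. Tables used Python 3.11.15 and pandas 2.3.3. The fit was checked on simulated data.

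Counts cover all members, and 2 tested members are not reported here by name. The members and lists were chosen with earlier results of these data known. Named genes were the 8 largest rises and falls with erlotinib that held in all lines (6 rises did), 12 fixed members, members called with AF154 and, as few were, the 2 largest differences each way, 4 members for PAR, 3 for the spread between lines, and close copies or partners. Other members and transcripts were named after their values were seen. Alternatives were other pseudocounts, filters, scalings, transcript sets, no block, a test against 0.5, other line sets and each line left out. Adding only reference chromosomes, and summing EIF3C with EIF3CL, were chosen after seeing the data.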

Additional observations from a re-analysis of the deposited data

Results flagged for a closer look

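In 62 groups of log2 changes of the named members (10 lines with erlotinib, 8 with AF154), 5 groups held a line far from the others by Dixon's 95% criterion, and chance gives about 1 in 20 groups, or 3.1. With erlotinib, EIF5A had its smallest fall in WT, with a log2 change of -0.891, and the other lines lay between -1.26 and -1.07. With AF154, PAR was the lowest line for EIF4B (-0.25, others -0.07 to 0.04) and the highest for EIF4G1 (0.36, others 0.04 to 0.14). EARS2 was lowest in Y726F (-0.35, others 0.15 to 0.53). With all 8 lines EARS2 did not pass (log2 change 0.23, limma, adjusted p = 0.15), nor with protein-coding transcripts only (0.12, adjusted p = 0.239). Without Y726F it passed (0.31, limma, adjusted p = 0.0368). That fit was singled out because Y726F lay far from the others, so it lends no support to a rise. WARS1 was highest in Y698F (0.79, others -0.16 to 0.27).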

How the results depend on the processing

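With erlotinib, the counts of members called stayed within 1.5 times of the main 61 (9 higher, 52 lower) under every alternative except the test against a log2 change of 0.5, which called 22 members, 1 higher (HARS2) and 21 lower. Leaving out each line in turn gave 60 to 63 members, 9 higher and 51 to 54 lower. Without the replicate block, 8 rose and 50 fell. With AF154 the 2 calls depended on the fit. There were 0 calls with the KD pair included, with a mean of at least 1 TPM, with no filter, with median centring, with no replicate block and against 0.5. Quantile normalization gave 1 (IARS1), and leaving out each line gave 0 to 1. There were 2 with a pseudocount of 0.1, at least 10 TPM in every library, reference chromosomes only, or EIF3C and EIF3CL summed. Without mitochondrially encoded genes there were 3, and with protein-coding transcripts only 4 (IARS1, EIF2S2, EPRS1 and TARS1). No fit called a member lower with AF154. The count of members with PAR outside the other lines was 18, and 17 to 21 under the alternatives. The members that the rules name for each comparison gave 740 log2 changes under alternatives, none with a change of sign. Of these, 693 kept their side of the threshold, 43 lost it and 4, all of EIF3CL with erlotinib, gained it. These do not cover members named outside those rules, such as EIF2B4 and EIF4G2 with erlotinib or EARS2, EPRS1 and TARS1 with AF154. Depth is unknown, so no floor can be given for members near 0.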
